A study of Mus musculus with 4 samples.

Results

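The EGF family binds the ErbB receptors, a group of receptor tyrosine kinases. The family as described here comprised 10 genes, the 7 ligand genes Egf, Hbegf, Areg, Ereg, Tgfa, Btc and Epgn and the 3 receptor genes Egfr, Erbb2 and Erbb3. Its members were the non-control probes that the array files label with one of these 10 gene names. These were 10 of 29924 gene names, with 12 of the 39429 probes for transcripts, 3 of them for Egfr and 1 for each of the other 9 genes. No further probe took one of these symbols when the names were updated. The rule that picks the probes uses gene names and no measured value.

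RNA was measured in 2 SerpinB2-/- and 2 wild type samples of primary kidney tubular cells, each on its own one-colour array. Both genotypes were on a B6.J background, the mice were 8-week-old males, and the cells were grown in renal growth medium. All 4 samples, the wild type ones included, had received PMA at 100 ng/ml, a phorbol ester that switches on protein kinase C in place of diacylglycerol. No untreated cells were measured, so every level below is that of PMA-treated cells. Serpinb2 encodes plasminogen activator inhibitor-2, and the study's title concerns its role in kidney injury and in ageing of the kidney. The labels give neither the deleted part of the gene, nor how many mice gave each sample, nor whether samples were pooled.

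The ligands are made as membrane-anchored precursors, and proteases of the ADAM family cut them free. The released growth domain binds Egfr, or for some ligands Erbb4, and the receptors then pair and phosphorylate each other. Erbb2 has no ligand of its own and serves as a partner, while Erbb3 binds neuregulins and has little kinase activity. In the kidney, pro-EGF is a product of the thick ascending limb and distal tubule, and signalling through Egfr takes part in tubular repair and in scarring after injury. Phorbol esters are known to set off shedding of the precursor of heparin-binding EGF, the product of Hbegf.

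The values are the scanner's background-corrected intensities, averaged over the 4 spots of a probe on the log2 scale and scaled so that the 75th percentile is the same on all arrays. The scaling multiplied an array by 0.934 to 1.05. That percentile lay between 1902 and 2143 units before scaling, and 23409 to 24476 probes per array were well above background. No spot was saturated. Signals of different probes are not compared, since probes differ in how well they bind. A probe was tested if over 50% of its spots were well above background on both arrays of at least 1 genotype, which held for 24174 probes. The test was limma's moderated test with Benjamini-Hochberg adjustment over all of these, with a threshold of 0.05, and an adjusted p below is from that test. Separate cultures or animals are not named in the labels, so all p-values measure only the spread between these samples.

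The Serpinb2 probe was dim on both SerpinB2-/- arrays, at 5.47 and 7.39 units and not well above background, against 3207 and 3276 units in wild type cells. Its signal was thus lower by at least 140-fold, a bound that puts the detection limit in place of the SerpinB2-/- values. Limma's test was of the values as measured, with a log2 difference of -8.99 (adjusted p = 0.000568). Whether the probe lies in the deleted part is not given. The 4 arrays were on 1 slide with the genotypes at separate positions, so position and genotype cannot be told apart. Among marker genes of renal epithelium, all 10 were measured and 5 fell. Of the proximal tubule markers 8 of 10 were measured, without the glucose transporters Slc5a2 and Slc5a12, and 1 rose and 1 fell. Of 12 markers of the thick ascending limb, distal tubule and collecting duct, 7 were below the test's limit, Umod, Slc12a1 and Slc12a3 among them, and 3 of the other 5 fell. Markers of other cells were present as well. Of 11 leukocyte markers 7 fell, of 9 endothelial markers 8 fell, of 9 urothelial and squamous markers 4 fell, and of 9 fibroblast and pericyte markers 3 rose. Over all genes at their brightest probe, 9.75% fell and 6.04% rose.

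Of the 12 probes of the family 10 were tested, for 8 genes. Both probes that passed the threshold were lower in SerpinB2-/- cells. They were the Tgfa probe and 1 of the 3 Egfr probes. Among all 24174 probes, 16.0% passed in either direction, 10.2% downward and 5.79% upward, so 2 of 10 is near the background. The groups did not overlap at 5 of the 10 probes, 3 of them lower and 2 higher, against 64.7% of all probes tested (33.7% lower, 31.0% higher). The median log2 difference of the 10 probes was 0.01, and that of all probes tested was -0.01. At the brightest probe of each gene, 1 of 8 genes passed, against 15.8% of 18392 genes (9.75% lower, 6.04% higher), and the groups did not overlap at 64.3% of those genes (31.9% lower, 32.5% higher). With 1 array left out, neither the Tgfa nor the Egfr probe passed.

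**Figure D1:**
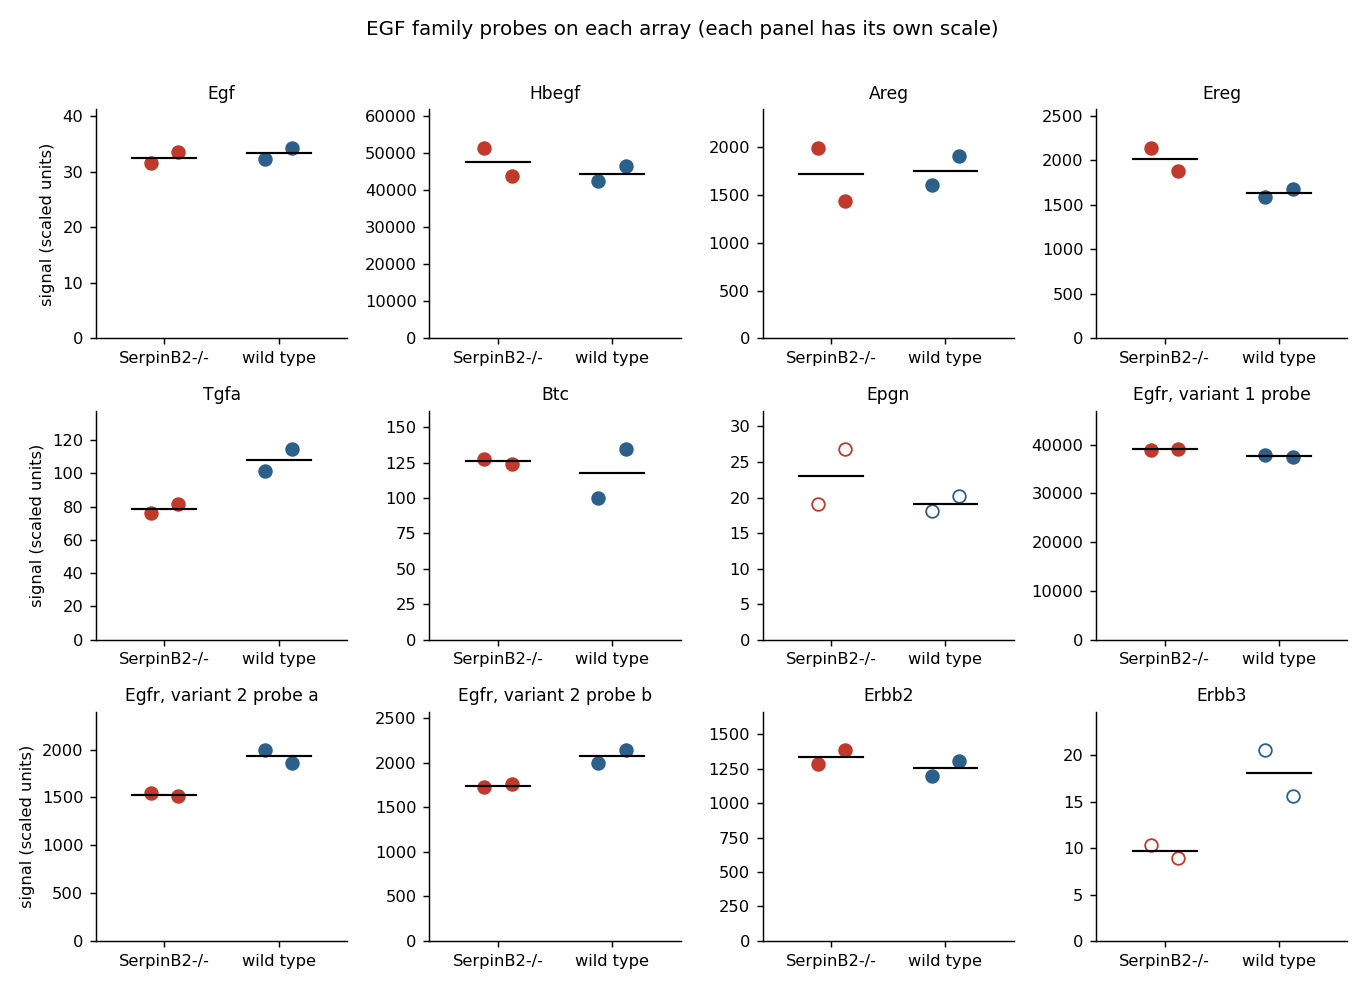
Signal of each EGF family probe on each array, in units scaled to a common 75th percentile, with SerpinB2-/- arrays left of wild type arrays and the mean of each pair as a bar. Open points are not well above background, as on every array for Epgn and Erbb3. The groups do not overlap for Ereg, Tgfa and the 3 Egfr probes, as at 64.7% of all probes tested. The points of Erbb3 are also apart, but all lie below the dimmest detected probe of their array.

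The first sequences shown are of the Egfr probes that the comparison of probes within this gene turns on. They are designed 60-base sequences that the files assign to transcript variant 2 of the gene. Both are on the plus strand of chromosome 11 in build mm9, at chr11:16783556-16783615 for probe a (A_55_P1956863) and chr11:16787172-16787231 for probe b (A_55_P1956862). Capitals mark a stop codon that ends probe b in a reading frame open up to that point.
Egfr probe a: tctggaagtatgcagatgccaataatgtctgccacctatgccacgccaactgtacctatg
Egfr probe b: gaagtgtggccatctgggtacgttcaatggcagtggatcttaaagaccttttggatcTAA

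Upstream sequences are shown for Tgfa and Egfr, the members with a probe past the threshold, and for Areg, whose signal did not pass but whose window is the one among the members' that holds a cyclic AMP response element. Each is the 250 bases before the start of transcription, from RefSeq on build GRCm38.p6, at chr6:86194972-86195221, chr11:16751953-16752202 and chr5:91139349-91139598, all on the plus strand. Capitals mark matches, on either strand, to the motifs TGANTCA (AP-1, the phorbol ester response element), TGACGTCA (cyclic AMP response element), GGGCGG (Sp1) and CCGGAAGT (ETS).
Tgfa: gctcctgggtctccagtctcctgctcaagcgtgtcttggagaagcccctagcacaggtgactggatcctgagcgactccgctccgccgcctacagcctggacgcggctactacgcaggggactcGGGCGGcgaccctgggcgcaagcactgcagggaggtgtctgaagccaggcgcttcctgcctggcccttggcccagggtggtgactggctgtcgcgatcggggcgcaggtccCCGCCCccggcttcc
Egfr: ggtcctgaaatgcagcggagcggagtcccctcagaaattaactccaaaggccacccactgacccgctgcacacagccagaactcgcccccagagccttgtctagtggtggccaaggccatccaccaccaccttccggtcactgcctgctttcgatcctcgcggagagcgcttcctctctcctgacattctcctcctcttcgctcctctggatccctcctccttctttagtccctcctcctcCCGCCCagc
Areg: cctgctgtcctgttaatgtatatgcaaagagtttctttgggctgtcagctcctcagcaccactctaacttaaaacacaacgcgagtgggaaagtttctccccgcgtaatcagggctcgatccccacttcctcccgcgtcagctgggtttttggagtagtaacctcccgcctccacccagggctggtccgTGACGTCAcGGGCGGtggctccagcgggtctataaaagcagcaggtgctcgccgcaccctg
Tgfa had 2 Sp1 matches, Egfr had 1, and Areg had 1 Sp1 match beside its cyclic AMP response element. The table of upstream windows held 7 of the 10 members, and none of the windows looked at here had an AP-1 match. Over all 32851 windows of this length, 6.75% held the AP-1 motif, 1.55% the cyclic AMP response element, 32.7% Sp1 and 2.88% ETS. No window was tested against a difference in signal. A match is only a run of letters, and its absence says nothing of a factor's binding outside the window.

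Tgfa encodes transforming growth factor alpha, a ligand of Egfr. The Tgfa probe (mm9, chromosome 6, 86224838 to 86224897) gave 75.97 and 81.4 units in SerpinB2-/- cells and 101 and 115 units in wild type cells. Both SerpinB2-/- arrays lay below both wild type arrays. Its log2 difference was -0.46 ± 0.09 (SE, n = 2 per group), a 1.37-fold fall with an adjusted p of 0.0308 by limma. The signal was low, with an SD between spots of one array of up to 0.24 on the log2 scale. Under the normexp method of background correction the log2 difference was -0.25 and the probe no longer passed (adjusted p = 0.0944 by limma). It did not pass with quantile normalization either (-0.32, adjusted p = 0.0596).

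Ereg encodes epiregulin, a ligand of Egfr and Erbb4. It gave 2145 and 1886 units in SerpinB2-/- cells and 1589 and 1681 units in wild type cells. The groups did not overlap, and SerpinB2-/- was the higher one. The log2 difference was 0.30 ± 0.09 (SE, n = 2 per group) with a 95% interval of 0.08 to 0.52, and it missed the threshold over all probes (adjusted p = 0.0768 by limma). It passed with a variance that depends on signal level (adjusted p = 0.0404 by limma) and with median scaling (0.43, adjusted p = 0.0292). Median scaling also moved the median of all tested probes to 0.13. Ereg missed the threshold under the other alternatives. Among them were the authors' deposited values (0.29, adjusted p = 0.155 by limma) and the replicate number as a block (0.30, adjusted p = 0.119).

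Hbegf encodes heparin-binding EGF-like growth factor, which binds Egfr and Erbb4 and is also the receptor of diphtheria toxin in some species. Its signal was 51483 and 43807 units in SerpinB2-/- cells and 42334 and 46574 units in wild type cells. The groups overlapped, with a log2 difference of 0.10 and a 95% interval of -0.17 to 0.36 (adjusted p = 0.543 by limma).

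Areg encodes amphiregulin, a ligand of Egfr that tubular and immune cells make after injury. It gave 1997 and 1438 units in SerpinB2-/- cells and 1606 and 1907 units in wild type cells. The 2 SerpinB2-/- arrays differed from each other by 0.47 on the log2 scale, and the 2 wild type arrays by 0.25, while the genotypes differed by -0.05. Its 95% interval, -0.51 to 0.41 (adjusted p = 0.876 by limma), was the widest among the 10 probes. Areg, Hbegf, Ereg and Btc were each higher in SerpinB2-/- replicate 1 than in replicate 2, and in wild type replicate 2 than in replicate 1. Tgfa and Egf were higher in replicate 2 of both genotypes.

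Btc encodes betacellulin, a further ligand of Egfr and Erbb4. It gave 128 and 124 units in SerpinB2-/- cells, inside the range of 100.2 and 135 units in wild type cells. The log2 difference was 0.12, with a 95% interval of -0.26 to 0.49 (adjusted p = 0.615 by limma).

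Egf itself was just above the detection limit. Its probe gave 31.5 and 33.5 units in SerpinB2-/- cells and 32.3 and 34.3 units in wild type cells, where the dimmest detected probe gave 23.0 and 23.4 units on the SerpinB2-/- arrays and 24.8 and 24.6 on the wild type arrays. The groups overlapped. The log2 difference was -0.03, with a 95% interval of -0.21 to 0.14 (adjusted p = 0.759 by limma), and its sign changed with the background method and the scaling. Of the 12 markers of the thick ascending limb, distal tubule and collecting duct, 7 were below the test's limit in the same cells, Umod and Slc12a3 among them. The other 5 were measured. Scnn1a (-1.22), Hsd11b2 (-1.10) and Gata3 (-0.78) fell on the log2 scale, while Aqp2 (-0.21) and Pvalb (-0.10) did not pass.

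Epgn, which encodes epigen, was not well above background on any array. It gave 19.2 and 26.9 units in SerpinB2-/- cells and 18.1 and 20.2 units in wild type cells, and it was not tested.

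Areg, Ereg, Epgn and Btc are neighbours on mouse chromosome 5. Their probes lie within 323 kb, from 91464119 to 91787007 (mm9), and no probe of another gene lies between them. In this cluster Ereg differed by 0.30, Btc by 0.12 and Areg by -0.05 on the log2 scale, and Epgn was not detected. In the 500 kb on either side, a window chosen after the positions were seen, 10 of 18 other probes were tested and 2 passed, near the 16.0% of all probes that did. They were the platelet chemokine genes Ppbp (-0.69 ± 0.07, adjusted p = 0.00924 by limma) and Pf4 (-1.58 ± 0.09, adjusted p = 0.00672 by limma). Both lie on the Epgn side of the cluster, and none of the 3 tested ligand probes of the cluster passed.

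**Figure D2:**
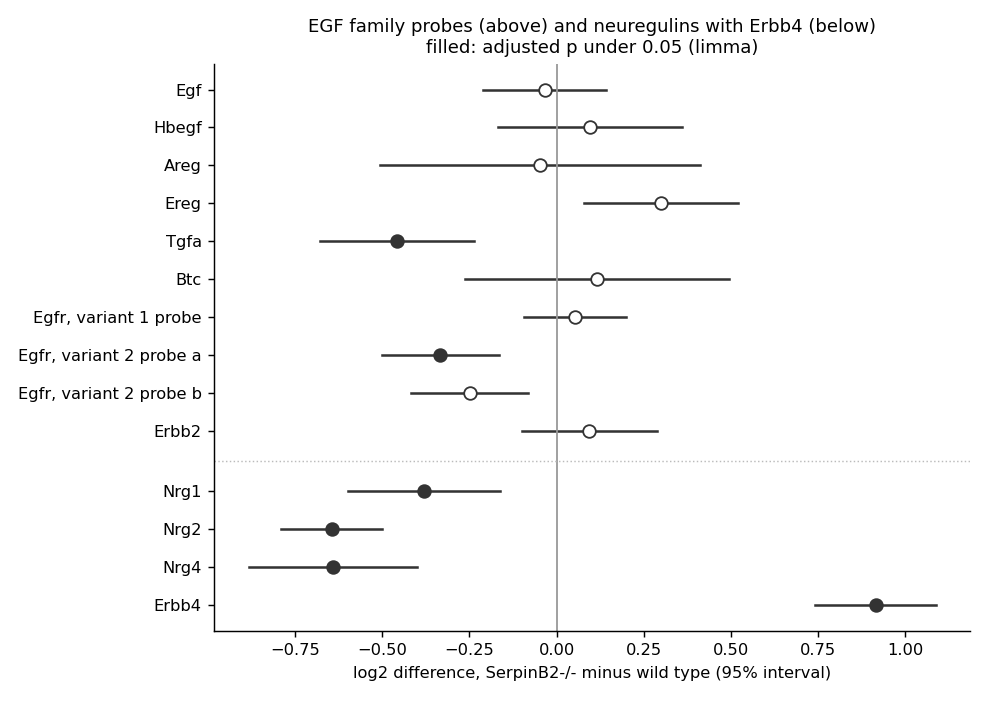
Log2 difference of each tested probe, SerpinB2-/- minus wild type, with its 95% interval from limma. The EGF family stands above the dotted line and the neuregulins with Erbb4 below it, and filled points passed the threshold of 0.05. In the family these are Tgfa at -0.46 and Egfr probe a, assigned to variant 2, at -0.33.

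Egfr, the receptor that the ligands share, was measured at 3 probes. Probe A_52_P106259, which the files assign to transcript variant 1, lies downstream of the other probes at 16813815 to 16813874 on chromosome 11 (mm9). It gave 38895 and 39166 units in SerpinB2-/- cells and 37843 and 37399 units in wild type cells. The groups did not overlap, but the log2 difference was only 0.05, with a 95% interval of -0.09 to 0.20 (adjusted p = 0.547 by limma).

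Probe a, assigned to variant 2, gave 1546 and 1515 units in SerpinB2-/- cells and 1995 and 1862 units in wild type cells. It was lower on both SerpinB2-/- arrays, with a log2 difference of -0.33 ± 0.07 (SE, n = 2 per group, adjusted p = 0.0339 by limma), a 1.26-fold fall. Median scaling shifted the median over all tested probes to 0.13, and with it probe a was at -0.20 and did not pass (adjusted p = 0.0975 by limma). Probe b gave 1723 and 1761 units in SerpinB2-/- cells and 1999.99 and 2142 units in wild type cells. The groups did not overlap there either, and the log2 difference of -0.25 ± 0.07 missed the threshold (adjusted p = 0.0644 by limma). Probe b passed with a variance that depends on signal level (adjusted p = 0.0335 by limma). It also passed with the 75th percentile taken over detected probes (-0.29, adjusted p = 0.0435), which moved the median of all tested probes to -0.04. Probe b did not pass with median scaling (-0.11, adjusted p = 0.237 by limma) or in the authors' deposited values (-0.24, adjusted p = 0.0758). Variant 2 is known to encode a shorter Egfr without the membrane-spanning and kinase parts. The probes are named here by the assignment in the files, and of probes a and b only probe b ends in a stop codon. Whether variant 1 transcripts also bind probes a and b was not tested. The fall at probe a can therefore not be ascribed to variant 2.

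The difference between the probes was itself tested, as an addition made after the values were seen. Relative to the variant 1 probe on the same array, probe a was at -0.37 and -0.41 in SerpinB2-/- cells, against 0.04 and -0.04 in wild type cells, on the log2 scale with the wild type mean set to 0. For probe b the values were -0.31 and -0.29 in SerpinB2-/- cells, against -0.06 and 0.06 in wild type cells. These ratios do not depend on how an array is scaled by a factor. A test of 2 arrays against 2 cannot go below an exact two-sided p of 0.333, which both ratios gave. Limma's test of a probe against the other probes of its gene, run over 10399 probes of 4617 genes, gave 0.34 for the variant 1 probe (adjusted p = 0.0486). In that test 1.35% of all probes passed. The result missed the threshold under each of the 7 alternatives tried, where it lay between 0.29 and 0.35 with an adjusted p of 0.0617 to 0.331, and the test of Egfr as a whole gene gave an adjusted p of 0.0657.

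**Figure D3:**
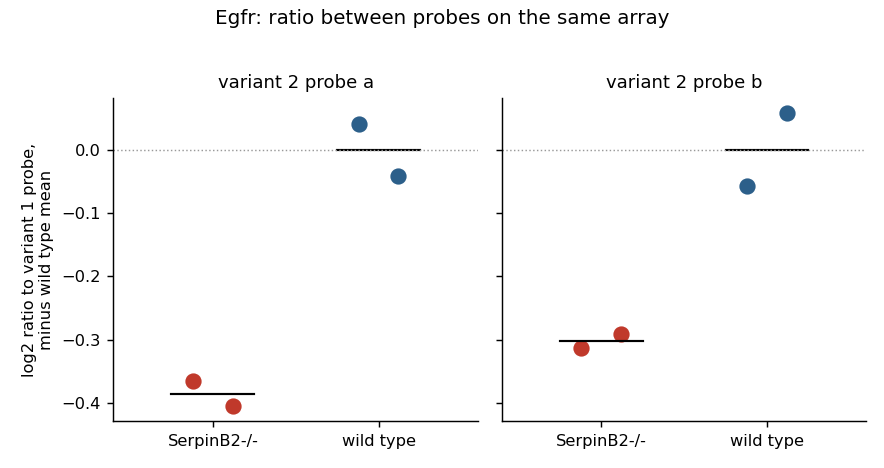
Log2 ratio of each Egfr probe assigned to variant 2 to the probe assigned to variant 1 on the same array. The wild type mean is set to 0, SerpinB2-/- arrays are on the left and bars mark the mean of each pair. Both SerpinB2-/- arrays lie below both wild type arrays, at -0.37 and -0.41 for probe a and at -0.31 and -0.29 for probe b.

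Erbb2, the partner receptor without a ligand, gave 1287 and 1385 units in SerpinB2-/- cells and 1200.1 and 1303 units in wild type cells. The groups overlapped, with a log2 difference of 0.09 and a 95% interval of -0.10 to 0.29 (adjusted p = 0.424 by limma). Erbb3 was not well above background on any array. Its signals of 10.3 and 8.97 units in SerpinB2-/- cells and 20.6 and 15.6 units in wild type cells all lay below the dimmest detected probe of their array, so no fold is given.

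The rest of the ErbB family, fixed as a list beside the 10 members, comprised the neuregulin genes, ligands of Erbb3 and Erbb4, and Erbb4 itself. Of the 5 genes 4 were tested at 1 probe each, and all 4 passed, 3 lower and 1 higher in SerpinB2-/- cells, where 15.8% of all genes passed at their brightest probe. Of the 3 lower genes, Nrg2 met the detection rule only through the wild type arrays, where its signal was higher. The list was chosen with earlier results of these data known. Nrg1 gave 6755 and 6244 units in SerpinB2-/- cells and 7975 and 8939 units in wild type cells (-0.38 ± 0.08 log2, SE, adjusted p = 0.0450 by limma). The call for Nrg1 ended with median scaling (-0.24, adjusted p = 0.0941), in the authors' deposited values (-0.38, adjusted p = 0.0516) and without any one of the 4 arrays.

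Nrg2 gave 30.8 and 30.7 units in SerpinB2-/- cells, with 1 of the 2 arrays well above background, and 48.2 and 47.9 units in wild type cells (-0.65 ± 0.06 log2, SE, adjusted p = 0.00758 by limma). Since Nrg2 was tested only through the wild type arrays, the direction of its call is not independent of the detection rule. Nrg4, known as a product of fat tissue, gave 38.3 and 45.2 units in SerpinB2-/- cells and 65.2 and 64.7 units in wild type cells (-0.64 ± 0.09 log2, SE, adjusted p = 0.0181 by limma). Both were dim, and with normexp they were at -0.19 and -0.25 and did not pass (adjusted p = 0.184 and 0.152). Leaving out either wild type array ended the Nrg4 call too, with an adjusted p of 0.0688 for the first and 0.0629 for the second. Nrg3 was not well above background.

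Erbb4 encodes the receptor for neuregulins that also binds several EGF family ligands. Its tested probe gave 65.1 and 61.7 units in SerpinB2-/- cells and 34.7 and 32.6 units in wild type cells. It rose by 0.91 ± 0.07 on the log2 scale, or 1.89-fold (SE, n = 2 per group, adjusted p = 0.00681 by limma). With normexp the rise was 0.41, still past the threshold. The wild type signals of this probe lay close to the dimmest detected probe of those arrays, at 24.8 and 24.6 units. The other Erbb4 probe was not well above background on any array (4.93 and 6.003 units in SerpinB2-/- cells, 6.42 and 5.58 units in wild type cells). It is annotated to another transcript name, but whether the transcript measured at the tested probe also holds its site was not tested.

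Markers of other cell types moved in the same samples. The leukocyte list had a median log2 difference of -0.51 over its 11 measured genes of 12, with a summed signal of 19599 to 20318 in SerpinB2-/- and 23077 to 25289 in wild type cells. The endothelial list had a median of -1.37 and a sum of 8559 to 10755 in SerpinB2-/- and 14378 to 14946 in wild type cells. Fibroblast and pericyte markers had a median of 0.35 and a sum of 364826 to 424365 in SerpinB2-/- and 281252 to 346657 in wild type cells. Urothelial and squamous markers had a median of -0.27 and a sum of 74491 to 74658 in SerpinB2-/- and 95142 to 103800 in wild type cells, with the uroplakins Upk1b, Upk2 and Upk3a not detected. Among kidney epithelial lists, the renal epithelium list had a median of -0.27 and a sum of 455320 to 478239 in SerpinB2-/- and 571595 to 572808 in wild type cells. The proximal tubule list had a median of 0.0012 and a sum of 6405 to 6735 in SerpinB2-/- and 6369 to 6712 in wild type cells. The list for the thick ascending limb, distal tubule and collecting duct had a median of -0.78 and a sum of 990.5 to 1072 in SerpinB2-/- and 1782 to 1861 in wild type cells. A sum is set mainly by its brightest probes, which differ in how well they bind, and so describes those more than the list. At their brightest probes, Itgam, the brightest leukocyte marker, differed by -0.09 and Kdr among the endothelial markers by 0.05. Acta2, the brightest fibroblast and pericyte marker, differed by 0.31, and none of these passed. Kdr was at -1.24 at its other tested probe, and the lowest of the 3 tested Itgam probes was at -0.81. The part of these shifts in the changes of Tgfa, Egfr, the neuregulins and Erbb4 was not tested. In such bulk RNA, fewer cells of a type and less RNA per cell cannot be told apart.

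Of 11 tested genes for proteases and rhomboid-like proteins that release the ligands, 1 rose and 1 fell (18.2%, against 15.8% of all genes), with a median of -0.10, where the median of all genes was 0.01. Adam8, a metalloprotease first known from myeloid cells, gave 5599 and 5144 units in SerpinB2-/- cells and 8162 and 8253 units in wild type cells (-0.61 ± 0.07 log2, SE, adjusted p = 0.0107 by limma). Adam19, which can cleave neuregulin, rose by 0.40 ± 0.08 (adjusted p = 0.0329), a call that ended with quantile normalization (0.36, adjusted p = 0.0521). Adam17, the main sheddase of Tgfa, Areg, Ereg and Hbegf precursors, differed by -0.10 ± 0.12 (adjusted p = 0.596), and its partner Rhbdf2 by -0.23 ± 0.06 (adjusted p = 0.0574). The Adam17 signal was low, at 71.2 and 82.3 units in SerpinB2-/- cells and 89.0 and 75.2 units in wild type cells. Adam10, the sheddase of the Egf and Btc precursors, differed by 0.17 ± 0.07 (adjusted p = 0.168).

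Below the receptors, the relay of adaptors, Ras, Raf, MAP kinases, PI3 kinase and Stat3 had 1 of 30 tested genes past the threshold, 3.33% against 15.8% of all genes, with a median of 0.03. The kinase gene Mapk3 differed by -0.12 ± 0.06 on the log2 scale and did not pass (adjusted p = 0.222 by limma).

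Among feedback inhibitors, 2 of 20 rose and 0 fell (10%, against 15.8% of all genes), with a median of 0.06. Socs5, which promotes breakdown of Egfr, gave 1554 and 1650.04 units in SerpinB2-/- cells and 999.6 and 1150.2 units in wild type cells (0.58 ± 0.09 log2, SE, adjusted p = 0.0201 by limma). Dusp6, a phosphatase that inactivates ERK, gave 22663 and 22367 units in SerpinB2-/- cells and 17735 and 19043 units in wild type cells (0.29 ± 0.07, adjusted p = 0.0447). The Dusp6 call ended with quantile normalization (0.24, adjusted p = 0.0952), with the 75th percentile over detected probes (0.25, adjusted p = 0.0567) and in the authors' deposited values (0.28, adjusted p = 0.0610). Errfi1, an inhibitor that binds the kinase domain of Egfr, differed by 0.24 ± 0.07 (adjusted p = 0.0792).

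Of 18 genes of receptor internalisation and sorting 2 rose and 1 fell (16.7%, near the 15.8% of all genes), with a median of 0.05. Cblc, an epithelial ubiquitin ligase of Egfr, gave 3029 and 3279 units in SerpinB2-/- cells and 5050.2 and 5286 units in wild type cells (-0.71 ± 0.07 log2, SE, adjusted p = 0.00879 by limma), with -0.94 at its other probe. Cblb, a related ligase, rose by 0.30 ± 0.06 (adjusted p = 0.0402), with -0.02 at its other probe. Its call ended with the 75th percentile over detected probes (0.26, adjusted p = 0.0506). The adaptor gene Sh3kbp1 rose by 0.34 ± 0.06 at its brightest probe (adjusted p = 0.0310), but its other probe was at -0.43.

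**Figure D4:**
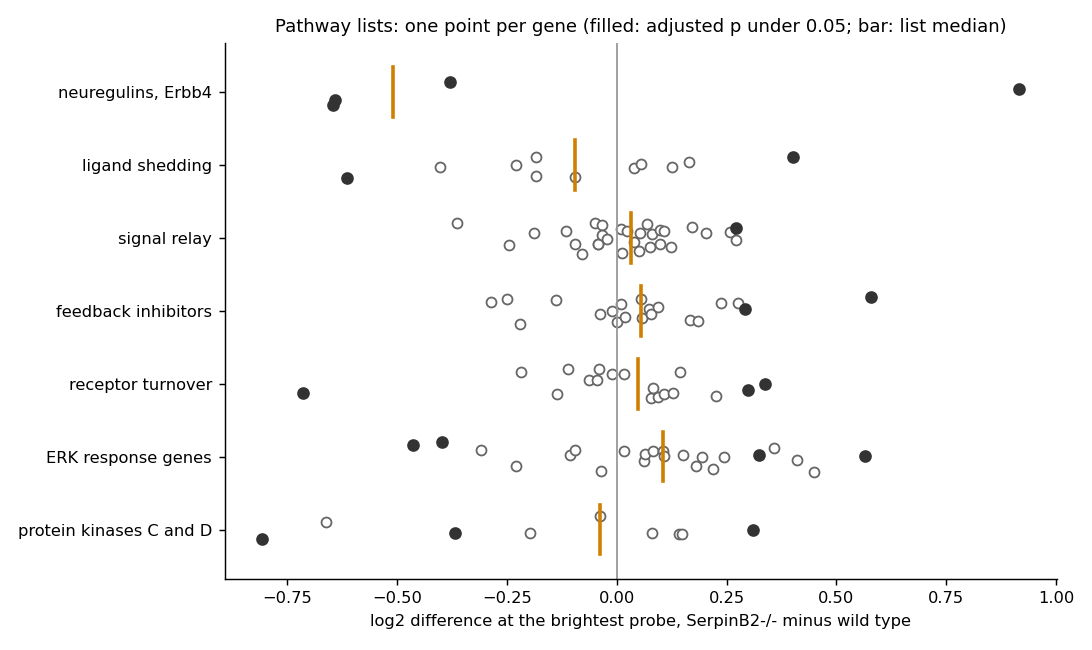
Log2 difference at the brightest probe of each tested gene in 7 pathway lists, SerpinB2-/- minus wild type. Filled points passed the threshold of 0.05, and a bar marks each list's median, from -0.51 for the neuregulins with Erbb4 to 0.10 for the ERK response genes.

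Of 23 genes that answer ERK signalling 2 rose and 2 fell (17.4%, near the 15.8% of all genes), with a median of 0.10. Egr2, an immediate-early transcription factor, gave 3674 and 3427 units in SerpinB2-/- cells and 2358 and 2441 units in wild type cells (0.56 ± 0.07 log2, SE, adjusted p = 0.0119 by limma). Srf, the factor of the serum response, rose by 0.32 ± 0.06 (adjusted p = 0.0338), a call that ended with quantile normalization (0.28, adjusted p = 0.0532). Ccnd1, which encodes cyclin D1, gave 108893 and 110169 units in SerpinB2-/- cells and 143833 and 158535 units in wild type cells (-0.46 ± 0.07, adjusted p = 0.0203). Junb, an AP-1 subunit, fell by 0.40 ± 0.06 (adjusted p = 0.0174). Fos, Fosl1 and Jun differed by 0.06, 0.02 and 0.06 and did not pass.

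Protein kinases C and D, to which PMA binds in part, had 1 of 9 tested genes higher and 2 lower (33.3%, against 15.8% of all genes), with a median of -0.04. Prkca, a phorbol ester receptor, gave 5735 and 6030 units in SerpinB2-/- cells and 4806 and 4684 units in wild type cells (0.31 ± 0.06 log2, SE, adjusted p = 0.0354 by limma), and it missed with quantile normalization (0.27, adjusted p = 0.0543). Prkcb, an isoform abundant in leukocytes, gave 118 and 105 units in SerpinB2-/- cells and 197 and 192 units in wild type cells (-0.81 ± 0.08, adjusted p = 0.00881). With normexp Prkcb was at -0.54, still past the threshold. Prkcz, an isoform that does not bind phorbol esters, fell by 0.37 ± 0.07 (adjusted p = 0.0337) and missed with median scaling (-0.23, adjusted p = 0.0562). Of the leukocyte markers, 7 of 11 fell in the same samples, and their part in the Prkcb difference was not tested. With 1 array left out, between 4 and 6 of the 15 genes past the threshold in these 6 pathway lists still passed.

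**Figure D5:**
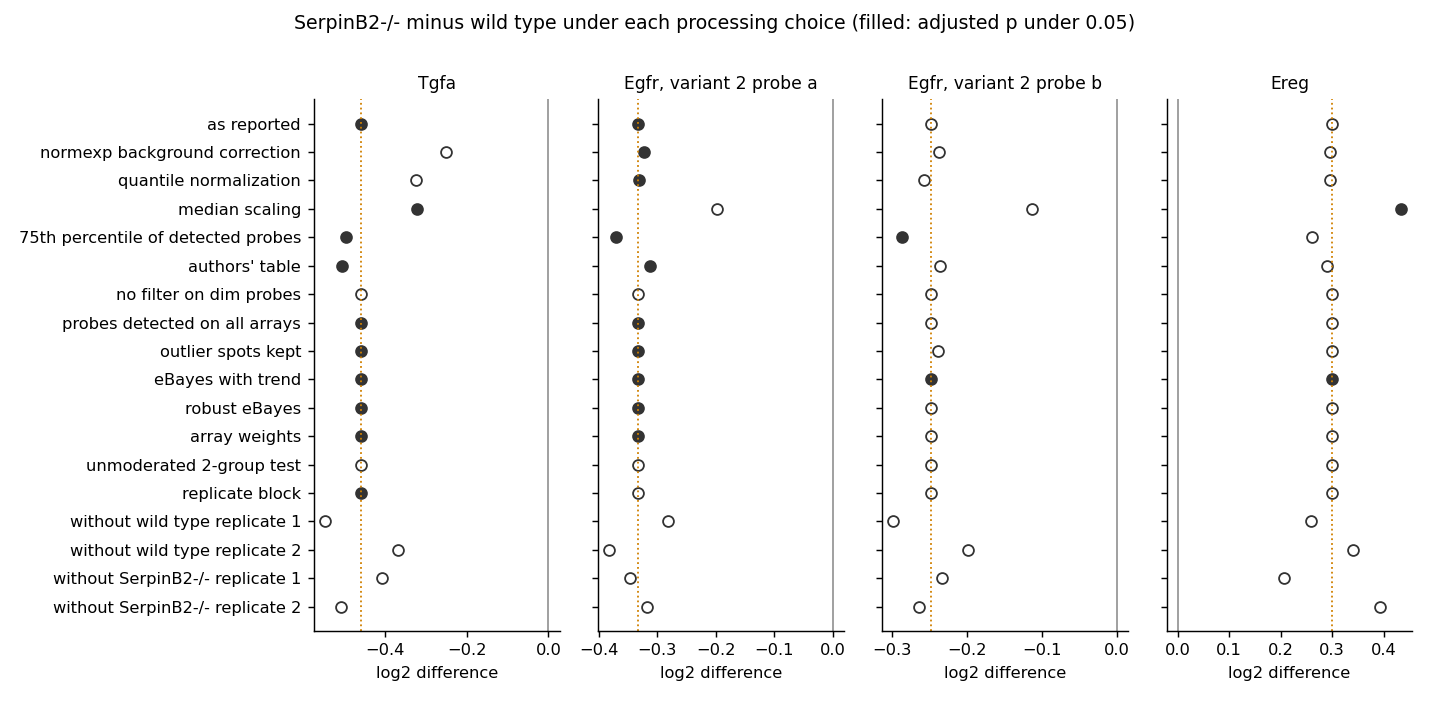
Log2 difference, SerpinB2-/- minus wild type, of Tgfa, both Egfr probes assigned to variant 2 and Ereg under each processing choice. Filled points are past the threshold of 0.05, and a dotted line marks the reported value. The sign is the same throughout, from -0.55 to -0.25 for Tgfa, from -0.38 to -0.20 for Egfr probe a, from -0.30 to -0.11 for Egfr probe b and from 0.21 to 0.43 for Ereg.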

How the data were processed

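The deposited files were 1 scanner output per array and a table of the authors' values. Per the file headers, the deposited intensity was made by Agilent Feature Extraction 10.7.3.1, which subtracts a background, removes trends across the array and replaces dim spots by surrogates. Labelling used 150 ng of RNA, per the labels. All arrays were on 1 slide, so slide could not differ between the genotypes. The deposited table holds intensity scaled to a 75th percentile of 1500 with a floor of 4, and how it was made is not given in the sources used here.

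Control spots and outlier spots were left out, log2 values of a probe's spots were averaged, and the 75th percentile was subtracted. The test was limma's (version 3.58.1, run under R 4.3.3), SerpinB2-/- minus wild type. The same fit was run on simulated probes with independent noise. These held no effect shared by the probes of an array, so that run says nothing of such effects here. The precision is limited by the number of arrays. Names followed a RefSeq table of GRCm38.p6 (28328 of 39429 probes by accession). Probe coordinates are the files' mm9. The brightest tested probe stood for a gene in the lists. Named were all 10 members, Serpinb2, the tested neuregulins and Erbb4, and in each list up to 4 genes past the threshold with the largest change, except that some listed genes are not reported here by name. Other list genes, and the genes beside the ligand cluster, were named after their values were seen. The members and lists were chosen with earlier results of these data known.

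Alternatives were normexp with an offset of 50, quantile normalization, median scaling, the 75th percentile over detected probes, the deposited table, other filters on dim probes, the brightest or mean probe per gene, outlier spots kept, trended, robust, array-weighted or unmoderated tests, the replicate block, and each array left out.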

Additional observations from a re-analysis of the deposited data

How the results depend on the processing

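The number of all probes past the threshold was 3858 (36.3% higher) and became 6839 with median scaling (76.3% higher), which moved the median of all probes to 0.13, 4 without a filter on dim probes, 0 with the unmoderated test (5837 at an unadjusted p under 0.05), and 1218 to 2245 with 1 array left out. The share that was higher was 44.3% with normexp, 47.3% with quantile normalization, 26.4% with the 75th percentile over detected probes and 44.9% with trend. The 2 EGF family probes became 1 with normexp, with quantile normalization and with the replicate block, 4 with trend (Tgfa, Ereg, Egfr probes a and b), and 0 without a filter, with the unmoderated test and with any 1 array left out (0 to 0). The single member gene past the threshold at its brightest probe, Tgfa, became 0 with normexp, with quantile normalization, without a filter and with the unmoderated test, 2 with median scaling and with trend (Ereg and Tgfa), and 0 to 0 with 1 array left out. The cause of these moves was not tested, except that leaving out an array leaves 3 samples.

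Signs turned only for members that had not passed. Egf was at 0.020 with normexp, 0.10 with quantile normalization and with median scaling, and 0.082 in the authors' deposited values, and at -0.078 to 0.010 with 1 array left out. Areg was at 0.088 with median scaling and at -0.28 to 0.19 with 1 array left out, Hbegf at -0.020 to 0.21, and Btc at -0.10 to 0.33. The alternatives for the pathway genes and the neuregulins were added after the data were seen. Of the 15 pathway genes past the threshold beyond the neuregulins and Erbb4, 4 to 6 still passed with 1 array left out, 10 with quantile normalization and 0 without a filter.

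Replicate numbers are shared between the genotypes, but no label says that they pair the samples. The same-numbered samples' deviations correlated at 0.21 over 24174 probes. With the replicate number as a block, 2835 probes passed, Tgfa among them, while Egfr probe a was at -0.33 (adjusted p = 0.0638 by limma) and Nrg1 at -0.38 (adjusted p = 0.0674), and 8 of the 15 pathway genes passed.

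The 2 arrays per genotype limit the precision to the intervals given, and the values of the dim probes Tgfa, Egf, Nrg2, Nrg4 and Erbb4 moved with the background method.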
